A study of Mus musculus with 3 samples.

Results

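The TCR beta clonotypes described here carry the V genes TRBV12-1, TRBV12-2, TRBV15 or TRBV16. They were chosen by the V gene that the deposited tables give as the best match of each clonotype, together with a TRBJ gene as the best J match, so the V gene assignment is the measured value that selected them. The rule found 2602 of 167967 TCR beta clonotypes. Of these, 565 (of 44807) came from CD4 T cells, 1577 (of 81212) from CD8 T cells and 460 (of 41948) from double negative (DN) T cells. All cells came from the spleen of 1 MRL.lpr mouse at 16 weeks of age, a lupus-prone strain whose lpr mutation disables the death receptor Fas. The subsets were obtained by flow cytometric sorting, and mRNA from 1000000 cells per subset went into 1 TCR alpha/beta library each, made with a SMARTer kit. There was no treatment and no healthy control mouse in these libraries. Each subset had 1 library, so no difference had a replicate check, and each test below compares libraries, not conditions. The tables hold TCR sequences and no CD4 or CD8 transcripts, so the sorted cell types could not be checked against their markers.

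The older names of these genes come from antibodies and from the first V gene maps. RefSeq (GRCm38.p6) lists TRBV12-1 as Vβ5.2, TRBV12-2 as Vβ5.1, TRBV16 as Vβ11 and TRBV15 as Vβ12. In the order of the locus, TRBV12-1 and TRBV12-2 alternate with the Vβ8 genes TRBV13-1 and TRBV13-2, and TRBV15 and TRBV16 are neighbours. Mouse mammary tumour virus proviruses in the mouse genome encode superantigens, proteins that bind a germline-encoded face of certain Vβ chains and MHC class II at the same time, in many cases most strongly the I-E molecule. Thymocytes with such a Vβ chain are deleted largely regardless of their CDR3, and CD4 T cells are often reduced more than CD8 T cells because the CD4 coreceptor binds MHC class II. Such deletion acts on a chain that reaches the cell surface. A rearrangement that is out of frame or holds a stop codon makes no chain and is carried along by a cell that uses its other allele. Nonproductive clonotypes are therefore often taken to show how often a V gene was rearranged and transcribed rather than how it was selected. Such mRNA is also subject to decay, and whether this reading holds in these libraries was not tested. Which proviruses this mouse carried is not given in the sources used here.

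The start of the CDR3 is the part of it that comes from the V gene, and it is shown because the later comparisons of in-frame clonotypes refer back to it. The capitals give the longest start that at least 25% of the distinct clonotypes of a gene shared, read 5′ to 3′ from the codon of the conserved cysteine.
TRBV12-1: TGTGCCAGCTCTCTCG
TRBV12-2: TGTGCCAGCTCTCTC
TRBV15: TGTGCCAGCAGTTT
TRBV16: TGTGCAAGCAGCTTAG
The starts of TRBV12-1 and TRBV12-2 were identical over all 15 bases of the shorter one, so the CDR3 start does not separate these closely related genes, and each clonotype is listed with its best match only. No CDR3 with the same J gene was listed with TRBV12-1 in one library and TRBV12-2 in another. Only a CDR3 found in more than 1 library could be listed so, and few were. In CD8 T cells, 5 of 103 in-frame TRBV12-1 clonotypes were found under TRBV12-1 elsewhere, so this does not show that the 2 genes were told apart. Other V genes did appear in another library for 5 of 135 distinct in-frame TRBV15 clonotypes (3.70%) and 0 of 362 nonproductive ones. The same held for 2 of 298 in-frame and 1 of 109 nonproductive TRBV12-2 clonotypes, and for none of TRBV12-1 or TRBV16. Most clonotypes were found in 1 library only and could not show another V gene, so these shares understate disagreement. Under TRBV15 itself, 1 in-frame clonotype was in all 3 libraries, 3 in DN and CD8 only and 1 in CD4 and CD8 only. The V label of in-frame TRBV15 clonotypes is therefore uncertain.

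The CD4, CD8 and DN libraries held 133667, 150874 and 194290 TCR beta reads, so that a clonotype without a read can still have a share of up to 0.00224%, 0.00199% and 0.00154% (3 reads). The 4 genes together held 0.858%, 1.73% and 0.687% of these reads. A clonotype is called in-frame here if its CDR3 was in frame without a stop codon, and nonproductive otherwise. Of all TCR beta clonotypes, 7.82% in the CD4 library, 4.89% in the CD8 library and 8.96% in the DN library were nonproductive. Intervals below are 95% Wilson intervals unless stated otherwise and cover counting error only, since amplified reads that carry no molecular identifier can stem from the same molecule.

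The 4 genes made up a larger share of nonproductive than of in-frame clonotypes. Together they made up 10.1% of nonproductive clonotypes (355) in CD4 T cells but 0.508% of in-frame clonotypes (210). In CD8 T cells they made up 8.33% of nonproductive (331) and 1.61% of in-frame clonotypes (1246), and in DN T cells 8.40% (316) and 0.377% (144). The sum of their nonproductive clonotypes thus varied less between libraries than that of their in-frame clonotypes. TRBV16 alone had 889 of the 1246 in-frame clonotypes of CD8 T cells, and the CD8 library was also the largest, with 77240 in-frame clonotypes of all V genes against 41301 in CD4 and 38188 in DN T cells. In bulk RNA, fewer cells with a gene and less mRNA per cell cannot be told apart. These sums are a description, because the genes were picked as a group with earlier results of these data known.

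TRBV16 (Vβ11) had 51 in-frame and 129 nonproductive clonotypes in the CD4 library, 889 and 143 in the CD8 library, and 81 and 75 in the DN library. Its nonproductive number in CD8 T cells was close to that in CD4 T cells, whereas its in-frame number there was far above those of both other libraries. In-frame clonotypes per nonproductive clonotype came to 0.395 in the CD4 library, 6.22 in the CD8 library and 1.08 in the DN library, against 11.8, 19.4 and 10.2 over all TRBV genes. TRBV12-1 (Vβ5.2) had 14 in-frame and 49 nonproductive clonotypes in the CD4 library, 103 and 41 in the CD8 library, and 13 and 64 in the DN library. Here CD8 T cells alone had more in-frame than nonproductive clonotypes. Its in-frame numbers in CD4 and DN T cells differed by 1, with 0.286 and 0.203 in-frame clonotypes per nonproductive one, against 2.51 in the CD8 library.

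TRBV12-2 (Vβ5.1) had 107 in-frame and 34 nonproductive clonotypes in the CD4 library, 182 and 31 in the CD8 library, and 19 and 49 in the DN library. Of the 4 genes it alone had more in-frame than nonproductive clonotypes in CD4 T cells, 3.15 to 1, whereas in DN T cells it had 0.388 to 1. TRBV15 (Vβ12) had 38 in-frame and 143 nonproductive clonotypes in the CD4 library, 72 and 116 in the CD8 library, and 31 and 128 in the DN library. It was the one gene of the 4 with fewer in-frame than nonproductive clonotypes in every library, at 0.266, 0.621 and 0.242 to 1 in the CD4, CD8 and DN libraries. Stop codons accounted for at most 8 of the nonproductive clonotypes of any of these genes in a library, and the rest were out of frame.

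**Figure D1:**
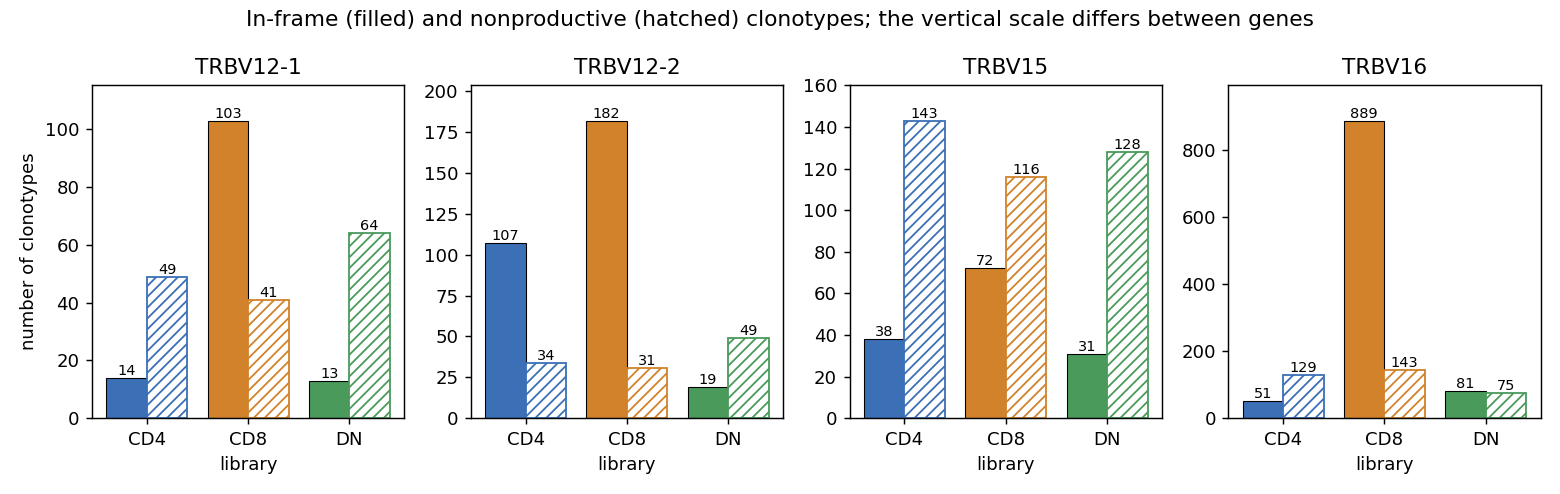
Number of clonotypes (vertical axis, scaled separately for each gene) of TRBV12-1, TRBV12-2, TRBV15 and TRBV16 in the CD4, CD8 and DN libraries, with in-frame clonotypes as filled and nonproductive clonotypes as hatched bars. The in-frame bar of CD8 T cells is the tallest in-frame bar of every gene (103, 182, 72 and 889), while the hatched bars differ less between libraries.

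The nonproductive share was then compared between V genes. In each library, the clonotypes of every TRBV gene with at least 20 clonotypes in all 3 libraries (23 genes) were set against those of all other TRBV genes, with a two-sided Fisher's exact test and Benjamini-Hochberg adjustment over 69 tests. All 4 genes had a larger nonproductive share than the other genes in each library. Over the 23 genes, 43.5% had a larger share in CD4 and 47.8% each in CD8 and DN T cells, so that a call alone is common and the size of the share matters more. TRBV15 had the largest share of the 4 in the CD8 library, 61.7% (54.6 to 68.4%; Fisher's exact test, adjusted p = 8.54e-101), with 79.0% in CD4 (72.5 to 84.3%; adjusted p = 8.39e-121) and 80.5% in the DN library (73.7 to 85.9%; adjusted p = 8.83e-103). TRBV12-1 had 77.8% in the CD4 library (66.1 to 86.3%; Fisher's exact test, adjusted p = 2.23e-41), 28.5% in the CD8 library (21.7 to 36.3%; adjusted p = 4.99e-20) and 83.1% in the DN library (73.2 to 89.9%; adjusted p = 1.80e-53).

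TRBV16 had 71.7% nonproductive clonotypes in the CD4 library (64.7 to 77.7%; Fisher's exact test, adjusted p = 9.63e-100), 13.9% in the CD8 library (11.9 to 16.1%; adjusted p = 1.95e-28) and 48.1% in the DN library (40.4 to 55.9%; adjusted p = 1.75e-36). The intervals of its 3 libraries did not overlap. TRBV12-2 had 24.1% in the CD4 library (17.8 to 31.8%; Fisher's exact test, adjusted p = 4.28e-09), 14.6% in the CD8 library (10.4 to 19.9%; adjusted p = 1.01e-07) and 72.1% in the DN library (60.4 to 81.3%; adjusted p = 7.64e-36). The intervals of the 2 Vβ5 genes lay apart in CD4 T cells and overlapped in DN T cells. The median share over the 4 genes was 74.7% in the CD4 library, 21.5% in the CD8 library and 76.3% in the DN library, beside medians over the 23 genes of 8.33%, 5.02% and 10.7%.

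The other V genes closest to the 4 in this measure were TRBV22 and TRBV23, with a mean absolute difference from the median of the 4 of 20.7 and 27.0 percentage points over the 3 libraries. In the CD4, CD8 and DN libraries TRBV22, a pseudogene in RefSeq, had 72.4%, 80.8% and 75.9% nonproductive clonotypes, and TRBV23 had 28.6%, 14.5% and 48.6%. For comparison, 6 further V genes known as targets of mammary tumour virus superantigens were listed: TRBV26 (Vβ3), TRBV19 (Vβ6), TRBV29 (Vβ7), TRBV13-3 (Vβ8.1), TRBV17 (Vβ9) and TRBV24 (Vβ17). In each library 1 of the 6, TRBV24, had a larger nonproductive share than the other genes, with 82.0% in the CD4 library, 84.4% in the CD8 library and 88.5% in the DN library. A smaller share was found for 4 of the 6 in the CD4 library, 5 in the CD8 library and 4 in the DN library, and TRBV19 was not called in CD4 and DN T cells. Of the listed superantigen targets, TRBV24 alone had a nonproductive share in the range of the 4 genes or above it.

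**Figure D2:**
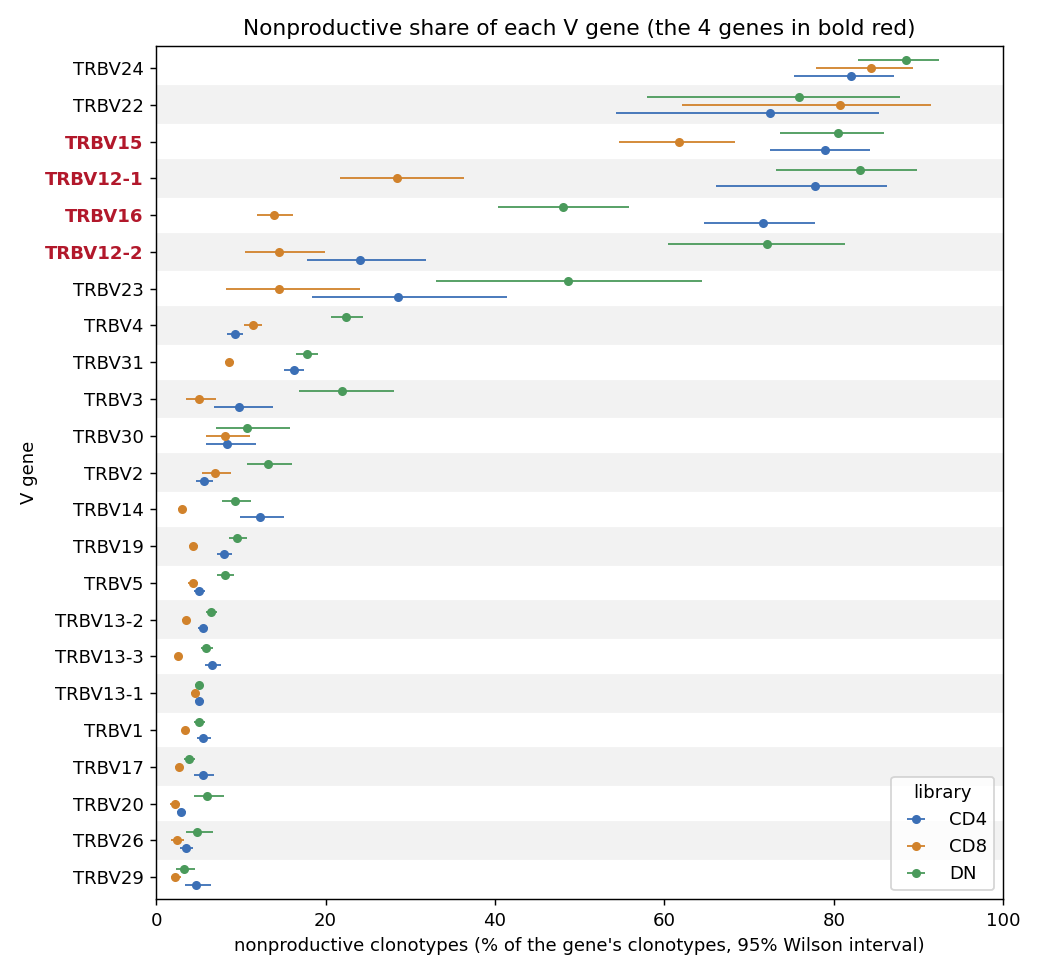
Nonproductive clonotypes as a percent of the clonotypes of each of 23 V genes (horizontal axis), with 95% Wilson intervals, for the CD4, CD8 and DN libraries; TRBV12-1, TRBV12-2, TRBV15 and TRBV16 are in bold red. TRBV16 and TRBV12-1 are far to the right in CD4 and DN T cells but at 13.9% and 28.5% in the CD8 library, whereas TRBV24 and TRBV22 are far to the right in every library.

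Next, the share of each V gene among in-frame clonotypes was compared between libraries, with Fisher's exact test and adjustment over the 23 genes and 3 pairs of libraries. These pairs share libraries and are not independent. TRBV16 made up 0.123% of in-frame clonotypes in the CD4 library (0.0939 to 0.162%), 1.15% in the CD8 library (1.08 to 1.23%) and 0.212% in the DN library (0.171 to 0.264%). Its share was 9.32 times as large in CD8 as in CD4 T cells (95% interval 7.03 to 12.4; Fisher's exact test, adjusted p = 1.60e-104), the highest ratio of the 23 genes for this pair, whose median was 0.910. The ratio for DN over CD8 T cells was 0.184 (0.147 to 0.231; Fisher's exact test, adjusted p = 9.04e-75), the lowest of the 23, and that of DN to CD4 T cells was 1.72 (1.21 to 2.44; adjusted p = 0.00314). Among nonproductive clonotypes TRBV16 made up 3.68% in the CD4 library, 3.60% in the CD8 library and 1.99% in the DN library, so its nonproductive ratio of CD8 to CD4 T cells was 0.978 (0.775 to 1.24). For DN over CD8 T cells its nonproductive ratio was 0.554 (0.420 to 0.730), the lowest of the 23 genes, and for DN over CD4 T cells it was 0.542 (0.409 to 0.718), so its nonproductive share was lower in the DN library too. With a minimum of 2 reads per clonotype the in-frame ratio of CD8 to CD4 T cells was 16.5, and that of DN to CD4 T cells was 2.98. Nonproductive shares of other V genes differed between libraries as well. Over the 23 genes the nonproductive ratio of CD8 to CD4 T cells ran from 0.363 for TRBV20 to 1.91 for TRBV14. The in-frame ratios of these 2 genes, 0.303 and 5.11, lay in the same directions. Nonproductive clonotypes are thus not a constant baseline here, and the cause was not tested.

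TRBV12-1 made up 0.0339% of in-frame clonotypes in the CD4 library (0.0202 to 0.0569%), 0.133% in the CD8 library (0.110 to 0.162%) and 0.0340% in the DN library (0.0199 to 0.0582%). Its share was 3.93 times as large in CD8 as in CD4 T cells (2.25 to 6.87; Fisher's exact test, adjusted p = 4.31e-08), and the ratio for DN over CD8 T cells was 0.255 (0.143 to 0.454; adjusted p = 1.36e-07). DN and CD4 T cells had a ratio of 1.00, with a wide interval of 0.472 to 2.14 that rests on 13 and 14 clonotypes (Fisher's exact test, adjusted p = 1). TRBV12-2 ordered the libraries differently. It made up 0.259% of in-frame clonotypes in the CD4 library (0.214 to 0.313%), 0.236% in the CD8 library (0.204 to 0.272%) and 0.0498% in the DN library (0.0319 to 0.0777%). The ratio for DN over CD8 T cells was 0.211 (0.132 to 0.339; Fisher's exact test, adjusted p = 1.17e-14) and that of DN to CD4 T cells 0.192 (0.118 to 0.313; adjusted p = 2.08e-14), whereas CD8 and CD4 T cells had a ratio of 0.910 (0.717 to 1.15; adjusted p = 0.527). TRBV15 made up 0.0920% in the CD4 library (0.0670 to 0.126%), 0.0932% in the CD8 library (0.0740 to 0.117%) and 0.0812% in the DN library (0.0572 to 0.115%). None of its 3 ratios passed the test, at 1.01 for CD8 over CD4 (0.684 to 1.501), 0.871 for DN over CD8 (0.572 to 1.33) and 0.882 for DN over CD4 T cells (0.549 to 1.42).

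Of the 4 genes, 2 passed the test between CD8 and CD4 T cells, 3 between DN and CD8 and 2 between DN and CD4 T cells. Over the 23 genes, 82.6%, 78.3% and 73.9% passed in these pairs, so most V genes differed between these libraries and the counts for the 4 genes are not above that background. Within a library, the in-frame order in CD4 T cells was TRBV12-2, TRBV16, TRBV15 and TRBV12-1. There the intervals of TRBV16 and TRBV15 overlapped, and the other neighbours were apart. In CD8 T cells the order was TRBV16, TRBV12-2, TRBV12-1 and TRBV15, with an overlap between TRBV12-1 and TRBV15 only. In DN T cells it was TRBV16, TRBV15, TRBV12-2 and TRBV12-1, and every neighbouring pair except TRBV16 and TRBV15 overlapped. Of 23 genes, TRBV16 ranked 18 by in-frame share in the CD4 library, 14 in the CD8 library and 17 in the DN library, and by nonproductive share 11, 10 and 14. TRBV15 ranked 20, 20 and 18 in frame and 9, 13 and 11 among nonproductive clonotypes, and TRBV12-1 ranked 22, 19 and 22 against 17, 17 and 15. TRBV12-2 ranked 17, 18 and 20 in frame and 18.5 (a tie), 20 and 16 among nonproductive clonotypes, so that its nonproductive rank was the lower one in CD4 and CD8 T cells.

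Whether the frame itself differed between libraries was tested for each gene as the change in its in-frame odds, relative to all other V genes, from one library to another. This likelihood-ratio test of gene, frame and library was added after the data had been seen, with adjustment over 69 tests. From CD4 to CD8 T cells the relative in-frame odds of TRBV16 were 9.63 times higher (95% interval 6.64 to 13.98; likelihood-ratio chi-square test, adjusted p = 2.41e-35) and those of TRBV12-1 were 5.35 times higher (2.67 to 10.7; adjusted p = 2.11e-06). For TRBV12-2 and TRBV15 the factors were 1.13 (0.657 to 1.95) and 1.43 (0.899 to 2.28), and neither passed the test. From CD8 to DN T cells the odds of TRBV12-1 changed by a factor of 0.154 (0.0764 to 0.309; likelihood-ratio chi-square test, adjusted p = 5.18e-08), those of TRBV12-2 by 0.126 (0.0653 to 0.241; adjusted p = 3.45e-10) and those of TRBV16 by 0.335 (0.233 to 0.482; adjusted p = 4.22e-08). TRBV15, at 0.743 (0.454 to 1.22), did not pass.

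From CD4 to DN T cells, TRBV16 and TRBV12-2 went opposite ways. The relative in-frame odds of TRBV16 were 3.23 times higher in DN T cells (2.05 to 5.08; likelihood-ratio chi-square test, adjusted p = 1.72e-06), and those of TRBV12-2 changed by a factor of 0.142 (0.0737 to 0.274; adjusted p = 6.37e-09). TRBV12-1, at 0.822 (0.354 to 1.91), and TRBV15, at 1.06 (0.625 to 1.81), did not pass. Over the 23 genes, 39.1% passed between CD8 and CD4, 47.8% between DN and CD8 and 52.2% between DN and CD4 T cells. With a minimum of 2 reads the factor of TRBV16 was 15.4 from CD4 to CD8 and 6.90 from CD4 to DN T cells.

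**Figure D3:**
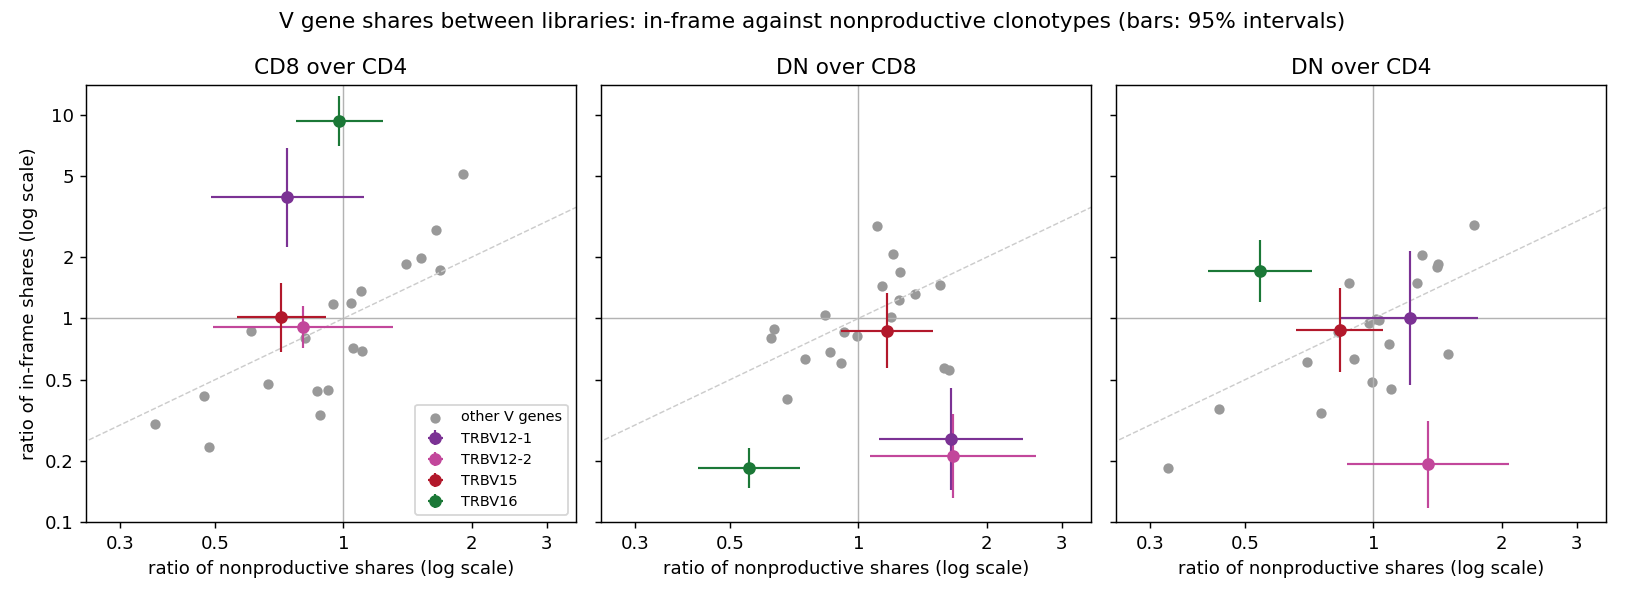
Ratio of the share among in-frame clonotypes (vertical axis, log scale) against the ratio of the share among nonproductive clonotypes (horizontal axis, log scale) for 23 V genes and 3 pairs of libraries; bars are 95% intervals of the 4 genes and the dashed line marks equal ratios. For CD8 over CD4 T cells TRBV16 sits at 9.32 in frame and 0.978 among nonproductive clonotypes, above all other genes.

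For each gene the largest in-frame clonotype of each library is shown, with the bases that match the V start given above in capitals and the remainder in lower case.
TRBV12-1 with TRBJ1-2, largest in CD4: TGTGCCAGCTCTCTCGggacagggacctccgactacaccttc
TRBV12-1 with TRBJ1-2, largest in CD8: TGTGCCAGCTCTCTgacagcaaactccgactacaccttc
TRBV12-1 with TRBJ2-7, largest in DN: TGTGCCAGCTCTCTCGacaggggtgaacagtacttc
TRBV12-2 with TRBJ1-1, largest in CD4: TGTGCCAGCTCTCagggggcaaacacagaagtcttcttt
TRBV12-2 with TRBJ2-5, largest in CD8: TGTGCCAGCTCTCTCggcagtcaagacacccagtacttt
TRBV12-2 with TRBJ2-5, largest in DN: TGTGCaggccaagacacccagtacttt
TRBV15 with TRBJ1-4, largest in CD4: Tcggggggttccaacgaaagattatttttc
TRBV15 with TRBJ1-2, largest in CD8 and in DN: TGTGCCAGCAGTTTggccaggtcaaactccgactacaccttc
TRBV16 with TRBJ1-6, largest in CD4: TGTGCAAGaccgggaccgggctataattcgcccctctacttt
TRBV16 with TRBJ2-3, largest in CD8: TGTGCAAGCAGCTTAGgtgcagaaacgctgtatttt
TRBV16 with TRBJ2-1, largest in DN: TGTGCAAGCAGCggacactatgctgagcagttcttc
Among these, TRBV12-2 in DN, TRBV15 in CD4 and TRBV16 in CD4 T cells kept at most 8 bases of the V start, and that of TRBV15 kept 1 and lacked the cysteine codon. The TRBV12-1 clonotype of CD4 T cells is 1 of 4 that had 2 reads there.

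The TRBV15 and TRBJ1-2 clonotype of 42 bases was the largest of them. It had 257 reads in the DN library (rank 51 of all its clonotypes, 0.132% of its reads), 43 in the CD8 library (rank 99) and 9 in the CD4 library. It held 78.6% of the in-frame TRBV15 reads of DN T cells, where the other 30 in-frame clonotypes left 70 reads. The largest TRBV16 clonotype of CD8 T cells had 100 reads (rank 34) and none in CD4 or DN T cells, and the largest of CD4 T cells had 39 reads and none in the other libraries. In DN T cells the largest TRBV16 clonotype had 27 reads, with 2 in CD8 and none in CD4 T cells.

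The largest TRBV12-2 clonotype of DN T cells had 48 reads, 51.6% of the in-frame TRBV12-2 reads there, with 3 in CD8 and 1 in CD4 T cells. Those of CD4 and CD8 T cells had 15 and 14 reads and none elsewhere. TRBV12-1 clonotypes were the smallest, with at most 2 reads in the CD4 library, 4 in the CD8 library and 21 in the DN library. No in-frame TRBV12-1 or TRBV12-2 clonotype ranked among the 100 largest of a library.

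Single reads were the commonest size of in-frame clonotypes of these genes and more numerous than all larger sizes together, except for TRBV12-1 in DN T cells. Single reads made up 71.4% of in-frame TRBV12-1 clonotypes in the CD4 library (45.4 to 88.3%), 72.8% in the CD8 library (63.5 to 80.5%) and 46.2% in the DN library (23.2 to 70.9%). For TRBV16 they made up 76.5% (63.2 to 86.0%), 66.1% (63.0 to 69.2%) and 53.1% (42.3 to 63.6%), beside 60.9%, 68.2% and 55.0% over all TRBV genes. The CD4 share of TRBV16 lay above that of all genes, and in CD8 and DN T cells the interval held the value of all genes. For TRBV12-2 the shares were 67.3%, 62.1% and 57.9%, and for TRBV15 63.2%, 76.4% and 67.7%, each with an interval that held the value of all genes. An in-frame clonotype had 4.15 reads on average for TRBV12-1, 4.89 for TRBV12-2, 10.5 for TRBV15 and 3.06 for TRBV16 in DN T cells, against 4.85 over all genes. Without the largest clonotype of each gene these averages were 2.75, 2.5, 2.33 and 2.76 reads, so those of TRBV12-2 and TRBV15 each rest largely on 1 clonotype. For TRBV12-1 this holds in part, as its largest clonotype had 38.9% of its in-frame reads in DN T cells. The value over all genes was not recomputed in this way. By reads rather than clonotypes, nonproductive sequences held 43.2% of TRBV15 and 48.6% of TRBV12-2 in DN T cells.

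**Figure D4:**
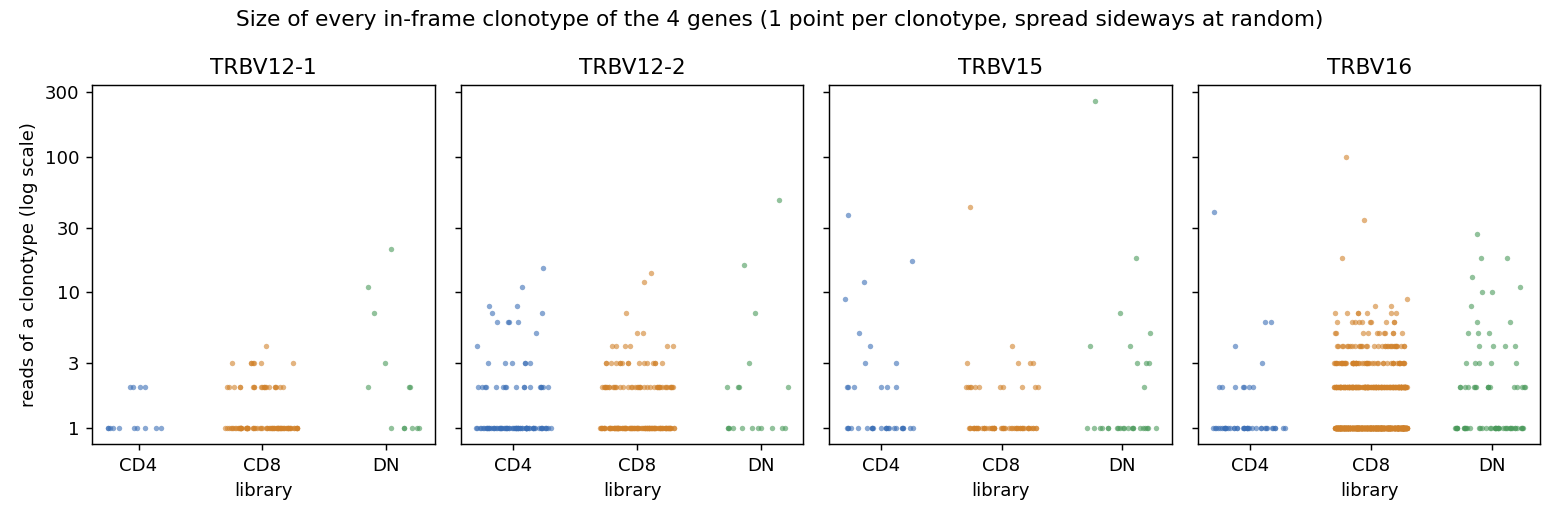
Reads (vertical axis, log scale) of every in-frame clonotype of TRBV12-1, TRBV12-2, TRBV15 and TRBV16, 1 point per clonotype, by library. Most points lie at 1 read, and the TRBV15 clonotype at 257 reads in DN T cells stands above all others.

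The nonproductive clonotype with the most reads of each gene was also small. For TRBV12-1 and TRBV16 it belonged to DN T cells, and for TRBV12-2 and TRBV15 to CD4 T cells, all of them out of frame. They are shown with the V start in capitals as above, since their length is not a multiple of 3 bases.
TRBV12-1 with TRBJ2-7, 34 bases: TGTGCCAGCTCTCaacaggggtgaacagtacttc
TRBV12-2 with TRBJ2-7, 44 bases: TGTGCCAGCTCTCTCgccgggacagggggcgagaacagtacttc
TRBV15 with TRBJ2-7, 40 bases: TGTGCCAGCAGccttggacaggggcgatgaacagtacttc
TRBV16 with TRBJ2-7, 20 bases: TGTGCAAGCAGCTTtacttc
The TRBV12-1 sequence had 23 reads in DN and 1 in CD8 T cells, and that of TRBV16 had 21 and 3. The TRBV12-2 sequence had 12 reads in CD4 T cells alone, and that of TRBV15 had 26 in CD4 and 3 in DN T cells.

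As a partial check of the V gene label, the first 9 bases of each CDR3 were compared with those most common for its V gene. These bases were the same for TRBV12-1, TRBV12-2 and TRBV15, so a match cannot tell these genes apart and does not establish the label. They matched in 94.35%, 94.99% and 94.97% of nonproductive and 95.9%, 97.4% and 97.1% of in-frame clonotypes over all TRBV genes in the CD4, CD8 and DN libraries. In TRBV16 they matched in 850 of 889 in-frame clonotypes in CD8 (95.6%) but in 35 of 51 in CD4 (68.6%) and 66 of 81 in DN T cells (81.5%). In TRBV15 they matched in 62 of 72 in-frame clonotypes in CD8 (86.1%), 29 of 38 in CD4 (76.3%) and 19 of 31 in DN T cells (61.3%), beside 94.8 to 95.8% of its nonproductive clonotypes. The matching share of in-frame clonotypes was thus lowest in TRBV15 and TRBV16 of the libraries with few of them. TRBV12-1 and TRBV12-2 matched in 84.2 to 97.1% of in-frame clonotypes. With matching clonotypes only, the in-frame share of TRBV16 in CD8 T cells was 12.8 times that in CD4 T cells, and every call of the 4 genes held. TRBV15 came close to a call, as its relative in-frame odds changed from CD8 to DN T cells by a factor of 0.5275 (likelihood-ratio chi-square test, adjusted p = 0.05035). The lack of a difference for TRBV15 thus depends on its unmatched clonotypes. The part of wrong V gene matches in the unmatched clonotypes was not tested.

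Some J genes were joined to these V genes more or less often than to all TRBV genes. TRBJ1-2 was joined to 27 of 103 in-frame TRBV12-1 clonotypes in CD8 T cells, 26.2% (18.7 to 35.5%), beside 4.80% of all in-frame clonotypes and 12.2% (5 of 41) of nonproductive TRBV12-1 clonotypes. TRBJ2-5 was joined to 49 of 182 in-frame TRBV12-2 clonotypes in CD8 T cells, 26.9% (21.0 to 33.8%), beside 13.3% of all in-frame clonotypes and 9.68% (3 of 31) of nonproductive ones. In CD4 T cells it had 14.02% of TRBV12-2 (8.68 to 21.8%) and 11.9% of all in-frame clonotypes. In the CD8 library the same J gene had 4.85% of in-frame TRBV12-1 clonotypes (2.09 to 10.9%).

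TRBJ1-6 was joined to 9 of 38 in-frame TRBV15 clonotypes in CD4 T cells, 23.7% (13.0 to 39.2%), and 11 of 72 in CD8 T cells, 15.3% (8.75 to 25.3%), beside 3.67% and 3.54% of all in-frame clonotypes. It had 1 of 31 in DN T cells, and 3.45 to 4.69% of nonproductive TRBV15 clonotypes in the 3 libraries. For TRBV16 in CD8 T cells the reverse held, with TRBJ1-6 in 5 of 889 in-frame clonotypes, 0.562% (0.240 to 1.31%), and 1 of 143 nonproductive ones. As a whole the TRBJ2 cluster had 41.7% of in-frame TRBV12-1 clonotypes in CD8 T cells (32.7 to 51.4%), 73.1% of TRBV12-2 (66.2 to 79.0%), 48.6% of TRBV15 (37.4 to 59.9%) and 65.9% of TRBV16 (62.7 to 69.0%), against 69.3% of all genes. Among nonproductive clonotypes the TRBJ2 share of the 4 genes in CD8 T cells ran from 63.4 to 74.2%, beside 74.9% of all genes. These J genes were singled out after their values were seen, and no test was applied.

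**Figure D5:**
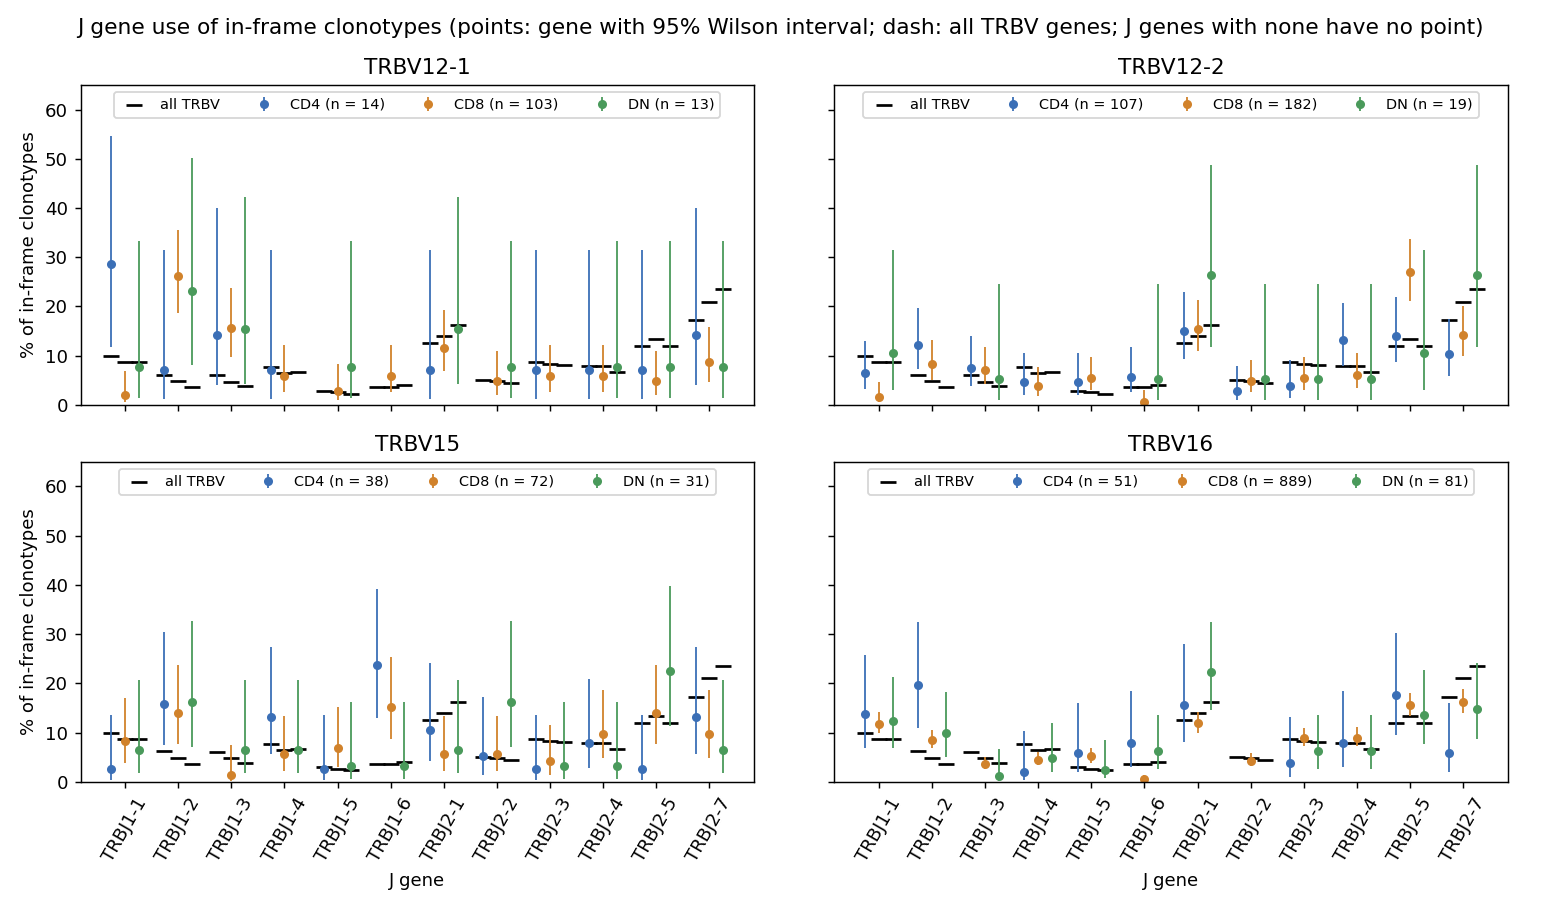
Percent of the in-frame clonotypes of each V gene (vertical axis) joined to each J gene (horizontal axis) in the CD4, CD8 and DN libraries, with 95% Wilson intervals; black dashes give the percent over all TRBV genes. TRBJ1-2 with TRBV12-1 (26.2%) and TRBJ2-5 with TRBV12-2 (26.9%) in CD8 T cells lie above the dashes.

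The CDR3 of in-frame clonotypes had a median of 42 bases over all TRBV genes in every library. TRBV16 had medians of 42 bases in CD4 and CD8 and 45 bases in DN T cells, and TRBV12-1 had 36, 42 and 42 bases in the CD4, CD8 and DN libraries. TRBV12-2 had 39, 42 and 39 bases, and TRBV15 had 40.5, 42 and 39 bases. In CD8 T cells all 4 genes therefore had the median of all genes, while the values that departed from it came from libraries with 14 to 107 in-frame clonotypes of the gene. No D gene was matched in 34.6 to 52.6% of in-frame TRBV12-1 and TRBV12-2 clonotypes over the 3 libraries, beside 23.3 to 26.5% over all genes. In-frame TRBV15 had 34.7 to 39.5% without one, and TRBV16 had 35.3% in CD4 but 27.2% in CD8 and DN T cells. Nonproductive TRBV12-1 and TRBV12-2 clonotypes had 28.6 to 39.0%, beside 19.7 to 22.6% over all genes.

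Sharing of clonotypes between libraries was counted for the same CDR3 bases, V gene and J gene. Of in-frame TRBV16 clonotypes, 27 of 889 in CD8 T cells were also in another library, 3.04% (2.10 to 4.38%), beside 12.2% of all in-frame clonotypes of CD8 T cells. The CD4 and DN libraries held only 51 and 81 in-frame TRBV16 clonotypes, so these numbers alone capped how many of the 889 could be shared. In CD4 T cells 13 of 51 were shared, 25.5% (15.5 to 38.9%), beside 13.4% of all, and in DN T cells 23 of 81, 28.4% (19.7 to 39.0%), beside 24.1%. Of the 81 in DN T cells, 20 were also in CD8 T cells, 24.7%, beside 19.6% over all genes. TRBV12-2 was likewise shared less than all genes in CD8 T cells, with 8 of 182, 4.40% (2.24 to 8.43%), and in CD4 T cells, with 7 of 107, 6.54% (3.20 to 12.9%). Its CD8 value was capped too, by the 107 and 19 in-frame TRBV12-2 clonotypes of the CD4 and DN libraries. With a minimum of 2 reads the CD8 value of TRBV12-2 was 7.25%.

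In-frame clonotypes found in all 3 libraries numbered 1 for each of TRBV12-1, TRBV12-2 and TRBV15 and 3 for TRBV16. Those of TRBV12-1, TRBV12-2 and TRBV15 with the most reads are printed above, and each had its highest reads in DN T cells, with 11, 48 and 257. The TRBV16 clonotype with the highest total had 18 reads in DN, 3 in CD8 and 1 in CD4 T cells.
TRBV16 with TRBJ1-1, in all 3 libraries: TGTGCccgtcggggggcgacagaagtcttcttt
It kept 5 bases of the V start, fewer than the 8 to 16 of the largest TRBV16 clonotypes above. Of nonproductive clonotypes, TRBV15 had 22 of 128 in DN T cells shared with another library, 17.2% (11.6 to 24.7%), beside 10.4% over all genes, 17 of them with CD8 T cells. TRBV16 had 3 of 75, 4.0% (1.37 to 11.1%).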

How the data were processed

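Libraries of mRNA from sorted CD4, CD8 and DN T cells of 1 mouse were made with the Takara SMARTer mouse TCR alpha/beta kit. Clonotypes were called by the authors with MiXCR, whose version, settings and reference are not given in the sources used here, and exported 1 table per library. In these deposited tables each clonotype has a count of reads, not normalized, and a fraction of reads that the authors' tables give per library. This deposited fraction equalled the count over the total of the table. Each CDR3 was listed once per library with 1 best V, D and J gene.

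Clonotypes with TRBV and TRBJ genes were kept, and 84, 101 and 78 others in CD4, CD8 and DN T cells were left out. Clonotypes rather than reads were tested, because reads of a clonotype are not independent. Scripts ran in Python 3.11.15 with pandas 2.3.3, SciPy 1.17.1, matplotlib 3.10.9 and NumPy 2.4.6. Tests were two-sided Fisher's exact tests and a likelihood-ratio test over 23 V genes, with Benjamini-Hochberg adjustment and a threshold of 0.05, and were tested on simulated data. Intervals of ratios used a normal approximation on the log scale. All 29 V gene names matched RefSeq (GRCm38.p6), which was used for older names and gene order. The genes, the lists and the rules for named clonotypes (the in-frame clonotype with the most reads per gene and library, the largest found in all 3, and the largest nonproductive one) were chosen with earlier results of these data known. Alternatives were a minimum of 2 reads, leaving out stop codons, clonotypes 1 edit from one with at least 10 times the reads or clonotypes found in other libraries, testing every V gene, counting reads, and 100 draws of each library to 133667 reads. The match of the first 9 bases was added after the data were seen.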

Additional observations from a re-analysis of the deposited data

Results flagged for a closer look

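These 7 results were picked out because the in-frame odds of a gene, relative to all other V genes, differed between 2 libraries by the likelihood-ratio test added after the data were seen. From CD4 to CD8 T cells the factor was 9.633 for TRBV16 and 5.352 for TRBV12-1. From CD8 to DN T cells it was 0.1536 for TRBV12-1, 0.1256 for TRBV12-2 and 0.335 for TRBV16. From CD4 to DN T cells it was 3.227 for TRBV16 and 0.1421 for TRBV12-2. With 1 library per subset, whether other mice share these differences was not tested. Over the 23 V genes, 39.1% passed the likelihood-ratio test between CD8 and CD4, 47.8% between DN and CD8 and 52.2% between DN and CD4 T cells. Passing it was therefore common among all V genes.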

How the results depend on the processing

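The nonproductive share of each of the 4 genes stayed above that of the other V genes, with an adjusted p below 0.05 by Fisher's exact test, in all 69 alternative tests that could be run. With a minimum of 2 reads TRBV12-1 had fewer than 20 clonotypes in a library and was not tested. That minimum also lowered the number of V genes with a larger nonproductive share to 5 in CD4 and 7 in CD8 T cells, and the number whose frame differed by the likelihood-ratio test to 5 between DN and CD8 and 5 between DN and CD4 T cells. It tested 20 genes and far fewer clonotypes. Of the called in-frame ratios and frame tests of the 4 genes, none changed its call. The ratio of TRBV16 for CD8 over CD4 T cells ran from 9.24 to 16.5 and that for DN over CD4 T cells from 1.71 to 2.98. Directions turned only in results that never passed the test. The in-frame ratio of TRBV12-1 for DN over CD4 T cells was 0.8977 without clonotypes of other libraries and 0.9795 with matching first bases. That of TRBV12-2 for CD8 over CD4 T cells was 1.296 with a minimum of 2 reads, and that of TRBV15 was 0.798 with this minimum and 0.9819 without clonotypes of other libraries. The frame factor of TRBV15 from CD4 to DN T cells was 0.9928 without 1 edit neighbours and 0.8549 with matching first bases. The causes were not tested. By reads, 7 of 12 nonproductive shares left their interval. With a minimum of 2 reads, 7 of 24 values for TRBJ2 use and for sharing between libraries left theirs. No paired analysis was possible because each subset had 1 library. Precision is limited by low numbers of in-frame clonotypes, such as 14 in CD4 and 13 in DN T cells for TRBV12-1 and 19 in DN T cells for TRBV12-2.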
